A study of Mus musculus with 2 samples.

Results

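The 7 genes described here encode the cyclin-dependent kinase (CDK) inhibitors of the mouse: Cdkn1a, Cdkn1b and Cdkn1c of the CIP/KIP family and Cdkn2a, Cdkn2b, Cdkn2c and Cdkn2d of the INK4 family. They are 7 of 15515 named genes that were measured above background in at least 1 of 2 macrophage populations, and they were read by 10 probes. They were taken by name, through the transcript accession of each probe, but the family was selected on its measured log2 differences between the populations, so those differences are a description and were not tested.

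Both populations came from total bone marrow of C57BL/6 mice with no genetic alteration given, labelled male for both, and both were grown in RPMI1640 with 10% fetal calf serum and 100 ng/ml of recombinant human M-CSF, the growth factor on which macrophages depend. The primary macrophages were sampled on day 5 of culture. The self-renewing macrophages were cells that went on growing after passage 4, a bulk population rather than a single clone as far as the methods say, so time in culture, passage and selection of growing cells cannot be told apart. RNA of each population was hybridised to 1 one-colour Agilent array, so there was no replicate, the number of arrays limits the precision, and differences are given by size with no p-value. Whether several mice were pooled is not given in the sources used here.

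A level below is the log2 probe intensity relative to the 75th percentile of the gene probes on the same array, and a difference is the level in self-renewing macrophages minus that in primary macrophages. The error of an intensity is the one the scanner software gives a spot, and it covers the reading of that spot only. Where a gene had several probes above background on both arrays, as 5077 genes did, their differences spread with an SD of 0.325 on the log2 scale.

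CDK inhibitors are small proteins that hold back the kinases driving the cell cycle. The INK4 proteins bind Cdk4 and Cdk6 and keep them from pairing with D-type cyclins, which leaves the retinoblastoma protein able to silence E2F target genes. The CIP/KIP proteins bind whole cyclin-CDK complexes, chiefly those of Cdk2, and can also help cyclin D-Cdk4 complexes to assemble. Cdkn1a is the classical target of p53, Cdkn1c is an imprinted gene expressed from the maternal copy, and Cdkn2a and Cdkn2b lie side by side in a locus that Polycomb complexes silence in young cells and that becomes active as cultured mouse cells are passaged. Bone marrow macrophages divide under M-CSF and normally leave the cycle as they mature.

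The sequences before the starts of the 3 genes with the most distinct pattern are shown first, because they are where the matched starts of these genes lie and the motifs described next were searched in them. RefSeq windows of 250 bases before the start (GRCm38.p6) were given for 6 of the 7 genes, 9 windows in all. The Cdkn1a gene had 2 starts on the plus strand, 2790 bases apart, at chr17:29090729-29090978 and chr17:29093519-29093768. Cdkn2a had 2 starts on the minus strand, 12427 bases apart, at chr4:89294620-89294869 and chr4:89282193-89282442, and the window of Cdkn2b, also on the minus strand, was chr4:89311033-89311282. The Cdkn2b start lay 16413 bases from the nearer start of Cdkn2a. Each sequence runs 5′ to 3′ towards the start, and the capitals mark motif matches on the printed strand.
Cdkn1a, first start: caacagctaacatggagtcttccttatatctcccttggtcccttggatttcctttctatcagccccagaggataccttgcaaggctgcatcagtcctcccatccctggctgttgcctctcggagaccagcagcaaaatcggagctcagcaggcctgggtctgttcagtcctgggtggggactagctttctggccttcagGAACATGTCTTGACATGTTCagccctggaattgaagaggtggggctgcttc
Cdkn1a, second start: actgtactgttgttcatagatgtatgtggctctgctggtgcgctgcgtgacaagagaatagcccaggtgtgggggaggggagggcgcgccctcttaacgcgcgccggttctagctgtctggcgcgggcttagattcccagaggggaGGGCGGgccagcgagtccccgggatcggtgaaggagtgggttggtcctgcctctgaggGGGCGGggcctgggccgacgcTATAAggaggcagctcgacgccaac
Cdkn2a, first start: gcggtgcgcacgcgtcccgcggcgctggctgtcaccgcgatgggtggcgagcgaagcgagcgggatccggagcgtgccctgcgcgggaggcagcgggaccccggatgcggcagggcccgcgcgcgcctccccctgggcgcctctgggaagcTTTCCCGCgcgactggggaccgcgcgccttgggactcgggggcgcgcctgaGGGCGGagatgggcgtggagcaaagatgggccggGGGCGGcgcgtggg
Cdkn2a, second start: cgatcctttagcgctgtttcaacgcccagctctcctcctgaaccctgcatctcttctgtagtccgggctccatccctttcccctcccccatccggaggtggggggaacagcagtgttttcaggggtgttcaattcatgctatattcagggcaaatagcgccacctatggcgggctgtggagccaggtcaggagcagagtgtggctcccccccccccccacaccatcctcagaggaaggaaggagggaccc
Cdkn2b: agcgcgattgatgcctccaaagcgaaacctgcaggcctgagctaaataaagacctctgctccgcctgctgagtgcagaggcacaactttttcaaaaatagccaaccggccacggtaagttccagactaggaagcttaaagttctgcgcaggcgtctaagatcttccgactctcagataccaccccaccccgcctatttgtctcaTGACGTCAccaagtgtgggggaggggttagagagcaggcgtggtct

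In the first Cdkn1a window the capitals mark a p53 response element, 2 half-sites of 10 bases in tandem, at bases 51 to 32 before the start, with 1 departure from the consensus and none in the central bases of either half-site. A TATAA on the opposite strand, at bases 227 to 223, was left in lower case. The same search, with up to 1 departure allowed, found such an element in 15 of 32851 windows (0.0457%), and that allowance was set after the Cdkn1a site had been seen. The second Cdkn1a window held the GC box GGGCGG at bases 104 to 99 and 46 to 41 and TATAA at bases 25 to 21. GGGCGG was found in 32.7% of all windows and TATAA in 22.8%.

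The first Cdkn2a window, at 78.4% G and C with 40 CpG pairs, was among the richest, since 98.7% of windows held fewer. Its capitals mark the E2F motif TTTCCCGC at bases 99 to 92, found in 0.895% of windows, and GGGCGG at bases 48 to 43 and 14 to 9. The second Cdkn2a window, with 7 CpG pairs, held none of the motifs searched. The Cdkn2b window carried the cAMP response element TGACGTCA at bases 46 to 39, found in 1.55% of windows. Besides the p53 element, the motifs searched on both strands were the TATA box TATAA, the CCAAT box (33.9% of windows), the GC box GGGCGG, the E-box CACGTG (6.02%), the cAMP response element TGACGTCA, the AP-1 site TGANTCA (6.75%), the E2F sites TTTGGCGC (0.417%) and TTTCCCGC, and the forkhead site GTAAACA (3.17%). None of the marked matches overlapped. These are letter matches, and nothing was measured about binding.

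Among the CIP/KIP genes, Cdkn1a and Cdkn1c were far lower in self-renewing macrophages and Cdkn1b was not. Among the INK4 genes, Cdkn2a and Cdkn2b were far higher and Cdkn2c and Cdkn2d were not. At 2-fold, 2 of the 7 genes were higher, 2 were lower and 3 lay between, and the count was the same at 8-fold. Over all 15515 genes, 13.1% were at least 2-fold apart, 4.76% higher and 8.38% lower, and 2.44% were at least 8-fold apart, 0.593% higher and 1.84% lower. These shares are given beside the counts as the background only, since the genes were picked with this contrast known.

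**Figure D1:**
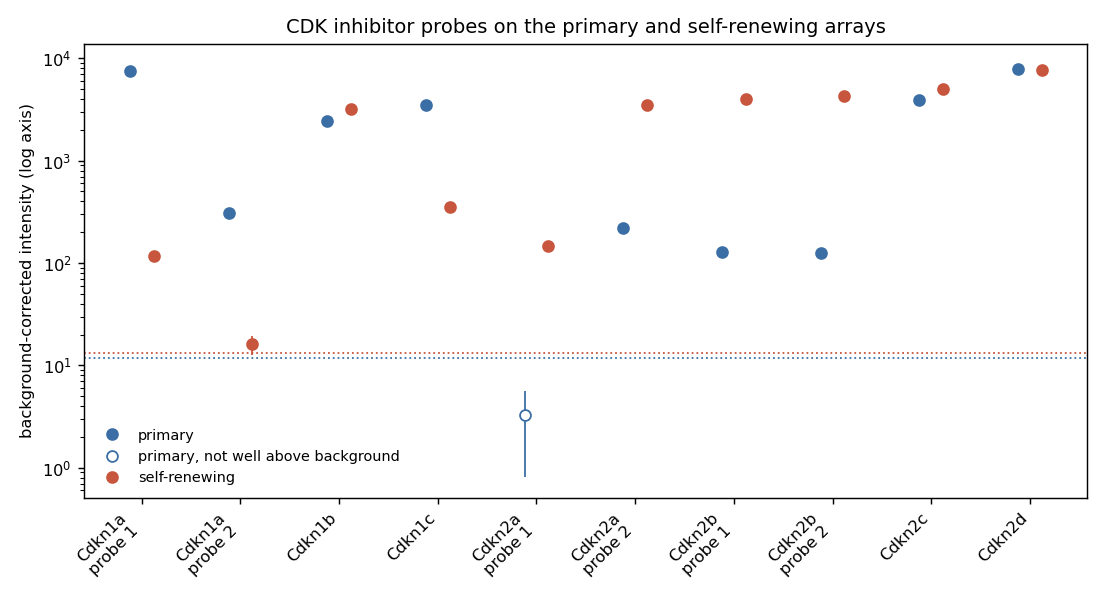
Background-corrected intensity (log axis) of the 10 probes of the 7 CDK inhibitor genes in primary (blue) and self-renewing (red) macrophages, 1 array each, with bars for the scanner error and dotted lines for the lowest intensity detected on each array. The Cdkn1a and Cdkn1c probes sit lower in self-renewing macrophages and those of Cdkn2a and Cdkn2b higher, and the open point is the Cdkn2a probe that was not well above background.

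Cdkn1a encodes p21, which p53 induces to stop the cycle after DNA damage. Its brighter probe (A_51_P363947) read 7436 ± 744 intensity units in primary and 118 ± 12.3 in self-renewing macrophages. The Cdkn1a level was thus 4.10 in primary and -1.92 in self-renewing macrophages, a difference of -6.02 ± 0.21 (scanner error) or 64.8-fold. Of the 14003 genes above background on both arrays, 10 had a lower difference.

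The dimmer Cdkn1a probe (A_55_P1986282), matched to another transcript of the gene, read 306 ± 30.7 in primary and 16.0 ± 3.34 in self-renewing macrophages. Its difference of -4.30 ± 0.33 was 19.6-fold, smaller by 1.72 on the log2 scale than that of the brighter probe. In self-renewing macrophages it stood 0.28 above the lowest level detected on that array, against 3.17 for the brighter probe. Both probes were thus lower in self-renewing macrophages, and the size differed with the probe. The probe sequences are not used here, so which of the 2 starts gave the signal cannot be told apart. With a normexp background correction the brighter probe differed by -5.38 and the dimmer by -2.32.

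Cdkn1c, which encodes p57, read 3477 ± 348 in primary and 354 ± 35.5 in self-renewing macrophages on its single probe. Its level was 3.00 and -0.33 respectively, a difference of -3.34 ± 0.20 or 10.1-fold lower. Of the genes on both arrays, 88 had a lower difference. Both values were well above background, so Cdkn1c remained detected in self-renewing macrophages.

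Cdkn1b, which encodes p27, the inhibitor that accumulates in resting cells, read 2421 ± 242 in primary and 3194 ± 319 in self-renewing macrophages. The difference of 0.36 ± 0.20 (1.28-fold) was close to the SD between probes of a gene, and 42.6% of all genes had a larger one. Cdkn1b was thus bright in both populations, unlike the other CIP/KIP genes.

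Cdkn2b encodes p15, an INK4 inhibitor known as a target of TGF-β signalling. Its first probe (A_52_P498241) read 129 ± 13.1 in primary and 3988 ± 399 in self-renewing macrophages, and its second (A_55_P1988183) read 125 ± 12.7 and 4312 ± 431. The differences were 4.91 ± 0.21 (30.1-fold) and 5.07 ± 0.21 (33.6-fold). The probes thus stood 0.16 apart, less than the usual spread between probes. The level of the second probe was -1.80 in primary and 3.27 in self-renewing macrophages, and 3 of the genes on both arrays had a higher difference. With the normexp correction the differences of the first and second probe were 4.36 and 4.51.

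Cdkn2a encodes p16INK4a and, from another first exon read in a shifted frame, the p53 activator ARF. Its brighter probe (A_55_P2008437) read 221 ± 22.2 in primary and 3474 ± 347 in self-renewing macrophages, levels of -0.98 and 2.96. The difference of 3.94 ± 0.20 was 15.3-fold, and 24 genes on both arrays had a higher difference. The dimmer probe (A_51_P144813) read 146 ± 14.9 in self-renewing macrophages and was not well above background in primary macrophages, which gives at least a 12.0-fold higher signal (3.59 on the log2 scale, but 1.77 with normexp). The files match both probes to the same transcript accession, and the products p16INK4a and ARF cannot be told apart from these values.

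Cdkn2c and Cdkn2d, which encode the INK4 proteins p18 and p19, were bright in both populations. Cdkn2c read 3917 ± 392 in primary and 4959 ± 496 in self-renewing macrophages, a difference of 0.30 ± 0.20 (1.23-fold). Cdkn2d read 7886 ± 789 and 7730 ± 773, a difference of -0.07 ± 0.20 (1.05-fold), with a sign that turned to above 0 on the submitters' scaled values. Both differences were smaller than the SD between probes of a gene. On either side of 2-fold the nearest members were Cdkn1b at 1.28-fold and Cdkn1c at 10.1-fold.

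**Figure D2:**
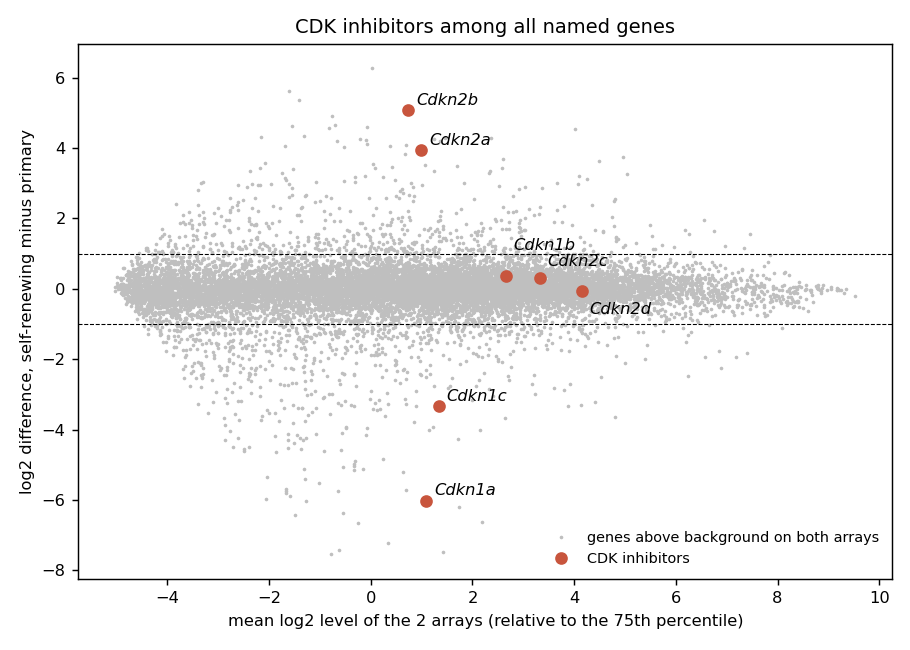
Mean log2 level over both arrays (horizontal axis) against the log2 difference, self-renewing minus primary macrophages (vertical axis), of the 14003 named genes above background on both arrays (grey), with the CDK inhibitors in red and dashed lines at 2-fold. Cdkn1a at -6.02 and Cdkn1c at -3.34 lie below the bulk of the genes, Cdkn2a at 3.94 and Cdkn2b at 5.07 above it, and the other members inside it. Some of the grey genes lie farther out than these members in each direction.

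Among genes detected on both arrays, those with a difference close to that of Cdkn1a (-6.02) included Cebpe (-5.96) and Rhoh (-5.89). In self-renewing macrophages Cebpe (-5.04) and Rhoh (-4.54) lay near the lowest level detected there (-5.08), which limits their differences, and Cdkn1a lay at -1.92. Those nearest to Cdkn2a (3.94) were Enpp4 (4.04), Fpr1 (4.05) and Rgs16 (3.82), and those nearest to Cdkn2b (5.07) were Flt1 (4.92), Cxcl14 (5.37) and Rtn4rl1 (4.65). Likeness here is the gap between 2 differences over 2 arrays.

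The differences of the CDK inhibitors were set beside those of their chromosomal neighbours, the 5 nearest measured genes on each side. At Cdkn1a none of 10 neighbours was 2-fold apart, with differences from -0.74 to 0.22, and the adjoining Srsf3 (-0.17) and Cpne5 (-0.02) were nearly level. At the INK4 locus the genes adjoining Cdkn2a and Cdkn2b on either side, the methionine salvage gene Mtap (0.31) and Zfp352 (-0.20), were less than 2-fold apart. Farther out, Tusc1 was 6.03-fold lower and the predicted gene Gm13275 at least 3.04-fold lower. The 10 neighbours of Cdkn2c ranged from -0.71 to 0.84 and those of Cdkn2d from -0.86 to 0.50, and none was 2-fold apart.

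Around Cdkn1c, which lies in an imprinted domain, 5 of 10 neighbours were at least 2-fold apart, against 13.1% of all genes. The directions were mixed. Kcnq1ot1, the long RNA that silences the domain on the paternal copy, stood at 3.39 in primary and 3.71 in self-renewing macrophages, a difference of 0.32. Kcnq1, the potassium channel gene that Kcnq1ot1 overlaps, was at least 10.9-fold lower, and Slc22a18, a transporter gene of the domain, was 2.25-fold higher. Of the other neighbours R74862 was 3.19-fold and Cd81 2.07-fold higher, and Tnfrsf22 was 2.35-fold lower. At Cdkn1b, Mansc1 was at least 9.41-fold lower and the adjoining Gpr19 (-0.61) and Lockd (-0.19) were less than 2-fold apart. These farther neighbours were named after their values were seen.

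**Figure D3:**
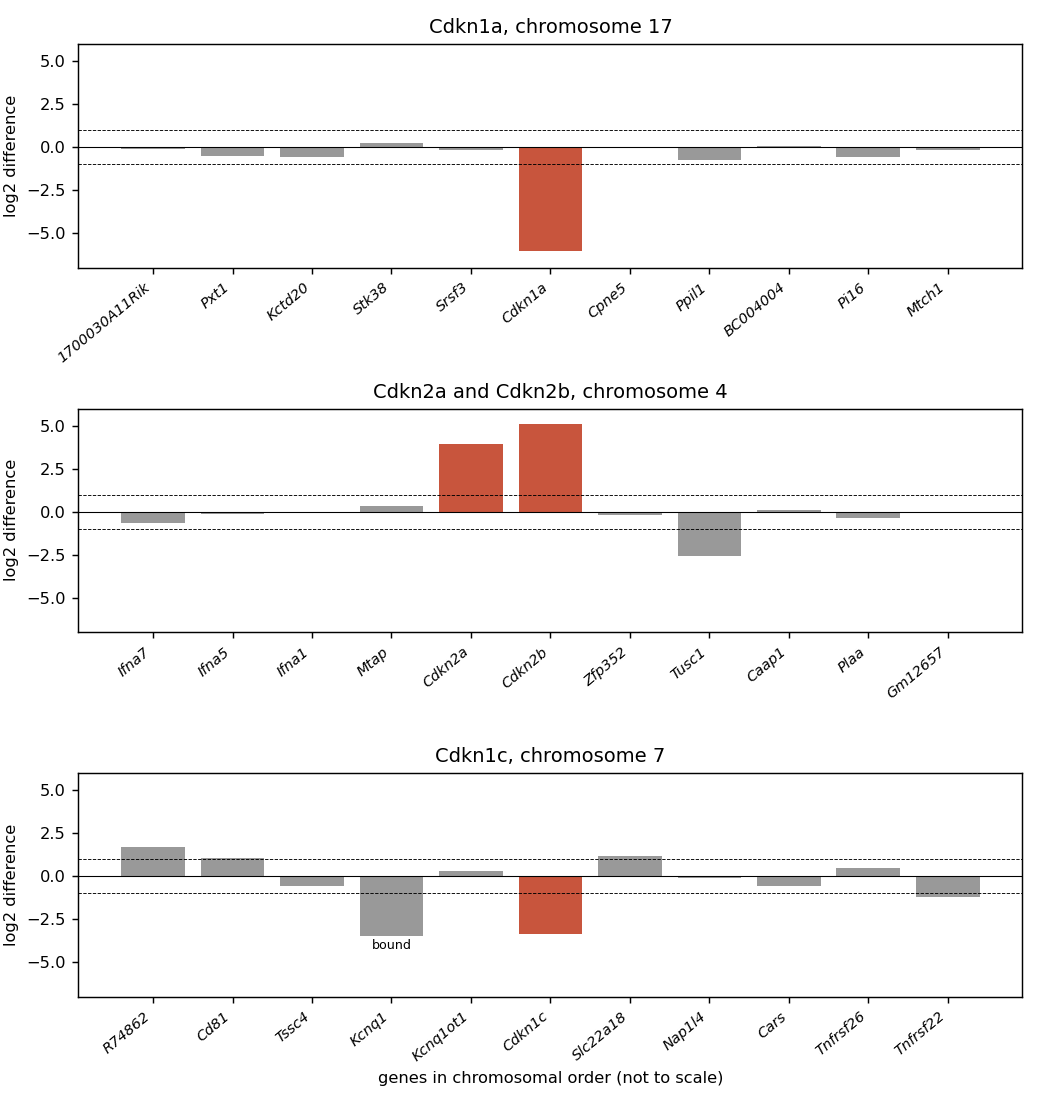
Log2 difference, self-renewing minus primary macrophages (bars), of Cdkn1a, of Cdkn2a and Cdkn2b, and of Cdkn1c (red) and of the nearest measured genes on each side (grey), in chromosomal order and not to scale, with dashed lines at 2-fold. The bars around Cdkn1a lie between -0.74 and 0.22, Mtap and Zfp352 flank the high Cdkn2a and Cdkn2b bars, and the bars around Cdkn1c lie on both sides of 0, with the bound of Kcnq1 drawn at its value.

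The other genes known as p53 targets mostly stood higher in self-renewing macrophages, where Cdkn1a stood 64.8-fold lower. Of 23 such genes with a value, 11 were at least 2-fold higher and 1 lower, with a median difference of 0.96 against -0.02 over all genes. The shares over all genes were 4.76% higher and 8.38% lower. Phlda3 (8.76-fold), an Akt inhibitor gene, Zmat3 (5.92-fold), an RNA-binding protein gene, and Plk3 (4.07-fold) were among those higher, and Eda2r was at least 17.4-fold higher (4.12 on the log2 scale, but 2.09 with normexp). The other Eda2r probe gave 2.12 on the log2 scale. The other genes over 2-fold higher were Trp53inp1, Fas, Ccng1, Pmaip1, Bbc3, Aen and Sesn2, with differences from 1.16 to 1.74, and Plk2 was the gene that was lower, by 5.38-fold. The other Fas probe differed by 0.97. Beside Cdkn1a at -6.02, the p53 gene Trp53 differed by -0.31, and Mdm2, which encodes the ligase that degrades p53, by 0.79 on its brighter and 1.03 on its other probe. Of 9 genes of p53 and its regulators, Mdm4 was 2.02-fold higher and Chek1 2.83-fold lower, and Mdm4 lay under 2-fold with normexp, with the mean over probes and with the arrays scaled on probes detected on both. The other genes with an array value and a p53 element like that marked in the first Cdkn1a window were Rps27l (0.48), Calhm2 (-0.03), Sptbn4 (0.01) and D730003K21Rik (at least 1.03 on the log2 scale).

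Most genes known to act on the INK4 locus were less than 2-fold apart, beside Cdkn2a at 15.3-fold and Cdkn2b at 33.6-fold. For the counts that follow, the shares over all genes were 4.76% at least 2-fold higher and 8.38% lower. Of 17 Polycomb genes, 2 were at least 2-fold higher and 1 lower, with a median of 0.18: Rnf2, a ubiquitin ligase of Polycomb complex 1, was 3.12-fold and Cbx7 2.22-fold higher, and Cbx2 was 2.05-fold lower. Bmi1, the best known repressor of the locus, differed by 0.39 and Ezh2 by -0.72. Of 12 genes known to act on INK4 transcription, the inhibitors of helix-loop-helix factors Id3 (23.6-fold) and Id1 (9.07-fold) were higher and Ets1 was 2.43-fold lower. Of 19 genes of the TGF-β, FoxO and Myc pathways, Smad3 (3.65-fold) and Tgfbr2 (2.16-fold), which carry the TGF-β signal, were higher and Tgfb3 was at least 3.19-fold lower. Myc itself differed by -0.55. With the normexp correction Cbx2, Cbx7, Ets1 and Tgfb3 were under 2-fold and Id3 differed by 3.53 in place of 4.56. Cbx2 was under 2-fold with quantile normalization and on the submitters' scaled values too, and on the latter 4 of the 12 genes acting on INK4 transcription were at least 2-fold higher.

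The partners of the inhibitors were mostly less than 2-fold apart, but the medians of their lists lay below 0. The median was -0.49 for the kinase list and -0.82 for the retinoblastoma and E2F genes, against -0.02 over all genes. For the cyclin genes it was -1.16, or -0.57 with normexp. Cdk4 and Cdk6, the targets of INK4 proteins, differed by -0.49 and -0.85. None of the 7 genes on the kinase list, which also held the Cdk7 partners Ccnh and Mnat1, reached 2-fold. Of 6 cyclin genes with a value, Ccnd2 was 10.1-fold lower, with its 3 probes between -4.24 and -2.40, Ccne1 was 4.10-fold and Ccne2 at least 3.01-fold lower, and Ccnd1 differed by 0.65. With normexp Ccne2 was under 2-fold. Of 13 retinoblastoma and E2F genes, E2f7 was 2.61-fold and E2f8 2.32-fold lower, and Rb1 differed by 0.05; the other E2f7 probe differed by -0.37, and with the mean over probes E2f7 was under 2-fold. Of 13 genes for the breakdown of the inhibitors, Dtl was 2.58-fold lower and Skp2, whose product marks p27 for destruction, differed by -0.47. Over the 12 lists, the senescence and other CDK-inhibitory lists described at the end included, 161 genes had a value. Of these, 11.8% were at least 2-fold higher and 16.8% lower, against 4.76% and 8.38% of all genes. The lists were chosen with earlier results of these data known, so these shares are a description. Of the 19 higher genes 11 were p53 targets, and of the 27 lower genes 10 were genes of DNA replication and division. Of 21 genes of DNA replication and division, 10 were at least 2-fold lower and all 21 stood below 0, with a median of -0.98. The 10 were the replication genes Pcna, Mcm2, Mcm3, Mcm4, Mcm5, Mcm6, Cdc6, Cdt1 and Rrm2 and the mitotic kinase gene Aurkb, with differences from -1.52 to -1.03. The median of these was below 0 on the submitters' scaled values too, where 6 were 2-fold lower.

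**Figure D4:**
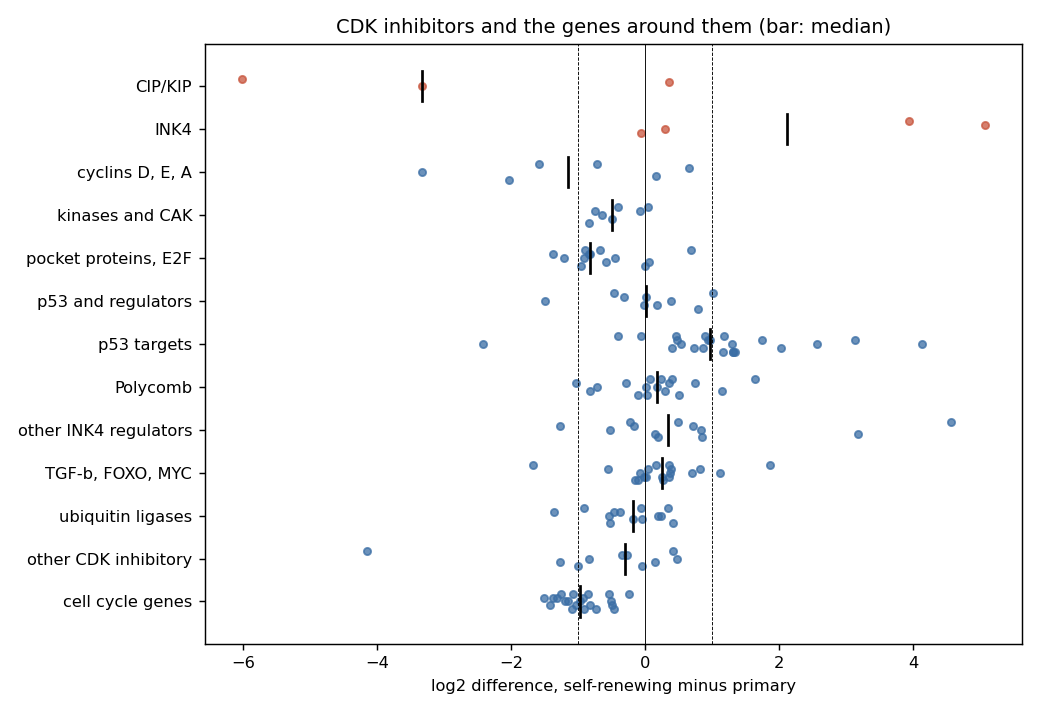
Log2 difference, self-renewing minus primary macrophages, of each measured gene on the lists of CDK inhibitors, their partners and their regulators (points, with bounds drawn at their value), with the median of each list as a black bar and dashed lines at 2-fold. The p53 targets lie mostly above 0 where Cdkn1a, in the CIP/KIP row, lies at -6.02, and the replication and division genes (cell cycle genes) all lie below 0.

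The arrays were checked against markers of the cells they were labelled as. All 10 macrophage markers were above background on both arrays, with Csf1r at 0.39, Adgre1 at 0.52, Itgam at 0.06 and Ptprc at 0.40. Among them Mertk was 4.68-fold higher and Fcgr1 3.39-fold lower. Of 9 neutrophil markers, 8 were detected in primary and 5 in self-renewing macrophages, and 7 were at least 2-fold lower, S100a8 at least 797-fold and S100a9 at least 1990-fold (-9.64 and -10.96 on the log2 scale, and -7.28 and -8.47 with normexp). The others were Mpo (36.6-fold), Camp (12.0-fold), Lcn2 (10.4-fold), Ltf (at least 37.9-fold) and Ngp (at least 38.6-fold), with differences from -4.58 to -2.60 under normexp. The summed level of all 9 markers was 6.72 in primary and 2.72 in self-renewing macrophages, and its part in the differences of the CDK inhibitors was not tested. That sum includes Elane, at 3.05 in primary and 2.58 in self-renewing macrophages, and Cxcr2, detected in self-renewing macrophages alone. Fewer cells of a type and less RNA per cell cannot be told apart in bulk RNA. Of 9 stromal markers, 3 were detected in primary and 1 in self-renewing macrophages, with Col1a1, Col3a1, Pdgfra, Pdgfrb, Dcn and Lum not well above background on either. With a value were 6 lymphoid, 4 dendritic and 2 erythroid or mast cell markers. Of these 2, 1 and 1 were at least 2-fold lower and none was 2-fold higher, against 8.38% and 4.76% of all genes. Those lower included Nkg7 (3.86-fold), Ccr7 (at least 17.7-fold) and Hba-a1 (3.29-fold). The other Ccr7 probe gave -1.36 on the log2 scale. With normexp Nkg7 was under 2-fold and Ccr7 differed by -2.03. Among the rest, Cd3e (-0.05), Cd79a (0.41), Zbtb46 (0.62) and Klf1 (0.02) were less than 2-fold apart. Of 6 Y-linked genes, 0 were detected in primary and 4 in self-renewing macrophages, and Xist was detected in primary macrophages alone, although both samples are labelled male. All 7 CDK inhibitor genes are autosomal, and the sex of the cells and the cell population cannot be told apart.

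Over all genes, 739 genes were at least 2-fold higher and 1300 lower, so that 36.2% of those apart were higher. On the submitters' scaled values, which move the median difference by 0.19, these counts were 1035 and 1069 (49.2% higher). Cdkn1a, Cdkn1c, Cdkn2a and Cdkn2b kept their direction in each setting tried.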

How the data were processed

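RNA of primary and self-renewing mouse bone marrow macrophages was measured on 1 Agilent one-colour array each. The intensity values were deposited by the authors as scanner output of Feature Extraction 11.5.1.1, already background-subtracted, with a table of scaled values; that table equals the processed signal times 1.07 (primary) and 1.19 (self-renewing), with column medians of 48.9 and 51.1, and its centring and the reason for its scale are not given in the sources used here. The submitters' normalization is likewise not given. Control spots and spots flagged as outliers on either array (112) were left out, spots of a probe were averaged, and log2 intensity minus the 75th percentile of gene probes (434 and 446 intensity units) was used. Gene names came from probe accessions matched to RefSeq genes (32988 of 56598 gene probes), and the brightest probe well above background on at least 1 array stood for a gene. A probe above background on 1 array gave a bound, the brighter level against the higher of the lowest detected level and the dim probe's own. There was no replicate, so no test was run.

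The members and lists were chosen with earlier results of these data known. Named genes were all 7 members, list and marker genes at least 2-fold apart, regulators a sentence turns on, the 3 genes nearest in difference to each of Cdkn1a, Cdkn2a and Cdkn2b, and close neighbours at least 2-fold apart; 2 genes that this rule names are not reported here. Python 3.11.15, numpy 2.4.6, pandas 2.3.3, R 4.3.3 and limma 3.58.1 were used, and the steps were tested on simulated data. Alternatives were normexp background correction (offset 50), quantile normalization, other percentiles, no filter, probes detected on both arrays, the mean over probes and the submitters' scaled values.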

Additional observations from a re-analysis of the deposited data

How the results depend on the processing

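No paired analysis was possible because a single array stands for each population. Each main result was compared with each alternative. Of these pairs, 95 stayed within the spread between probes (or 1.5 times for counts), 9 moved, and no value past 2-fold changed sign. Of the pairs for the other gene, probe, list and neighbour values, 738 stayed within it and 59 moved. Cdkn1a stayed within it in 6 of 8 alternatives, and Cdkn2a and Cdkn2b in 7 of 8 each. With normexp correction the difference was -5.38 for Cdkn1a, 3.61 for Cdkn2a and 4.36 for Cdkn2b (whose first probe was then the brighter), and 429 genes were higher and 750 lower at 2-fold. When probes near background were kept too, these counts were 1192 and 2336, and with probes detected on both arrays 782 genes were lower. Averaging the probes put Cdkn1a at -5.16. The submitters' scaling turned the median of the neighbours of Cdkn1a, Cdkn2a and Cdkn2b to just above 0. The value of Cdkn1c ranged from -3.35 to -3.13, and those of Cdkn1b, Cdkn2c and Cdkn2d stayed between -0.15 and 0.55. The dimmer Cdkn2a probe ranged from 1.77 with normexp to 5.45 without the filter. Each bound ("at least") is for the main background correction and was smaller with normexp for the bounds on list and marker genes. The causes were not tested. Signal over background limits the dim probes, and 1 array per cell type leaves the spread between samples unknown.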

Other observations

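Some further lists bear on growth control. Of 16 genes linked to cellular senescence, 11 had a value, 1 was at least 2-fold higher and 3 lower. Beside these lists, 4.76% of all genes were at least 2-fold higher and 8.38% lower. Hmga1, which encodes a chromatin protein, was 5.56-fold lower with its 3 probes between -2.68 and -0.59, and Lmnb1, the gene of lamin B1, was 2.82-fold lower. Cxcl1 was at least 7.83-fold lower (-2.97 on the log2 scale, but -1.22 with normexp) and Il1b 2.69-fold higher, or under 2-fold with the normexp correction. Il6, Il1a, Igfbp5, Igfbp7 and Mmp3 were not well above background on either array. Another 10 genes were listed as CDK-inhibitory by function or by name, Cdkn2aip and Cdkn2aipnl by name. Of these, Cables1 was at least 17.8-fold, Pkmyt1 2.42-fold and Wee1 2.01-fold lower, and none was 2-fold higher. Wee1 was under 2-fold with normexp and on the submitters' scaled values, and Cables1 differed by -2.08 with normexp in place of -4.15.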
